A study of Homo sapiens with 2 samples.

Results

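Integrins, laminins and collagens were read on 2 whole-transcript microarrays of DLD-1, an established human colorectal adenocarcinoma cell line. One culture was transfected with negative control siRNA (siControl). The other received an siRNA against the transcription factor YY1 (siYY1). Both were used at 5 nmol/L, with RNA taken on day 3. Both groups share the line, the transfection reagent and the dose, and the knockdown rests on 1 siRNA. The genes were taken by symbol, as every named probe set whose symbol was that of an integrin alpha or beta chain, a laminin alpha, beta or gamma chain, or a collagen chain. This gave 74 of the 17245 protein-coding genes with a name: 25 integrins, 8 laminins and 41 collagens, each read by 1 probe set. A further 8 genes of these families were not analysed here.

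Integrins are cell surface receptors built from 1 alpha and 1 beta chain, and the pairing decides which matrix protein is bound. Laminins are cross-shaped trimers of an alpha, a beta and a gamma chain that, with type IV collagen, make up the basement membrane beneath an epithelium. Collagens are triple helices of 3 chains, which form fibrils in connective tissue, networks in basement membranes or transmembrane proteins. Intestinal epithelial cells attach to laminin and collagen through integrins, whereas most fibrillar collagen of the gut wall comes from fibroblasts.

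Values are normalized log2 expression, and differences are siYY1 minus siControl on that scale, so a difference of 1 is 2-fold. With 1 array per group there is no replicate error and no test, so every difference compares these cultures and not the conditions, and the number of arrays limits the precision. No named probe set was assigned to YY1, so the knockdown was not checked here. A gene counts as bright where the mean of its values on both arrays was at or above 7.31, the median over protein-coding genes, and a value at or below 7.05 lies in the background range, set from 24 genes restricted to other tissues. The differences of those 24 genes ran from -1.35 to 1.13, and 2 of them passed 2-fold. Across bright protein-coding genes the SD of the difference was 0.74. The cultures read as epithelial: 10 of 15 colorectal epithelial markers were bright, among them EPCAM at 16.29 with siControl and 16.47 with siYY1. Of these 10, 7 were below 0, against 50.1% of bright protein-coding genes, and their median was -0.17. The lowest were CLDN4 at -0.94 and CDX2 at -0.76, and the 3 above 0 were EPCAM at 0.18, KRT8 at 0.16 and KRT18 at 0.12. The 5 dim markers were VIL1, CEACAM5, LGALS4, GPA33 and CDX1. Of markers for other cell types, 1 of 12 for fibroblasts and mesenchyme (ACTA2), 1 of 8 for endothelium (ENG) and 2 of 9 for leukocytes and platelets (CD14 and PF4) were bright.

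The genes with the largest differences were integrin and laminin chains, and all were higher on the siYY1 array. The 5 bright genes past 2-fold were ITGB8, LAMC1, ITGAV, ITGB1 and ITGA5. The 250 bases before their annotated starts (RefSeq, GRCh38.p14, the most upstream start of each gene) are shown because these genes stood together at the top of the group. Capitals mark the GC box GGGCGG, the core of the SP1 site, on either strand.
LAMC1, chr1:183023170-183023419, plus strand: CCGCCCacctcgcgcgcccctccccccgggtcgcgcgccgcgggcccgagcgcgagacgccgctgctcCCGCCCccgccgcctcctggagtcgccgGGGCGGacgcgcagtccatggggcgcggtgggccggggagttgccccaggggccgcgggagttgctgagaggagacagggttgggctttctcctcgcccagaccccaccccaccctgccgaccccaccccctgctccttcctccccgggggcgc
ITGB1, chr10:32958231-32958480, minus strand: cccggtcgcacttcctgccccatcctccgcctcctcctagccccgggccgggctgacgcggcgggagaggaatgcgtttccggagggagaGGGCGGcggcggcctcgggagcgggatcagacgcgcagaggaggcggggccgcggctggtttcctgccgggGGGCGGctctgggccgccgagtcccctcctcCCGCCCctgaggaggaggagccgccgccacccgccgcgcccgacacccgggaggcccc
ITGAV, chr2:186589806-186590055, plus strand: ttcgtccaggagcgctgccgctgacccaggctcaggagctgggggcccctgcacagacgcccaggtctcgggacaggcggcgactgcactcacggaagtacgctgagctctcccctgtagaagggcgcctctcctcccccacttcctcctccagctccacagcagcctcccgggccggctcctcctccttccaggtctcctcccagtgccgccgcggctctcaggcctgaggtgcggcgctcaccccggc
ITGB8, chr7:20330650-20330899, plus strand: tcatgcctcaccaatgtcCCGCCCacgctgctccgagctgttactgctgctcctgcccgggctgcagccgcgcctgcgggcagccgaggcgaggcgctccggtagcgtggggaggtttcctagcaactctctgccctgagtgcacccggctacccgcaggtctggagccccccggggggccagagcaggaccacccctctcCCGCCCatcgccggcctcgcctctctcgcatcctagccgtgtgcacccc
ITGA5, chr12:54419267-54419516, minus strand: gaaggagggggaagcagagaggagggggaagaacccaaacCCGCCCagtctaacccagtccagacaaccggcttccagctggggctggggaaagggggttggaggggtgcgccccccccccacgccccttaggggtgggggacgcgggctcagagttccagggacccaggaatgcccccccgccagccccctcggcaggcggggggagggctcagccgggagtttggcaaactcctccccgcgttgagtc

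The GC box was found 3 times for LAMC1, 3 times for ITGB1, 2 times for ITGB8, 1 time for ITGA5 and 0 times for ITGAV. In the RefSeq set 42.6% of all 35116 windows of that length held it, and 50.7% of the 69 windows of these families. The core letters of the YY1 motif, GCCATNTT on either strand, were in none of the 5 sequences. The 50 bases after each start, which the RefSeq set also held, were not searched. Windows existed for 52 of the 74 genes, and among their 69 windows the YY1 letters occurred in 1, against 3.86% of all windows. That window belonged to ITGB5, where the match begins 150 bases before the start. It is shown with the match in capitals.
ITGB5, chr3:124901419-124901668, minus strand: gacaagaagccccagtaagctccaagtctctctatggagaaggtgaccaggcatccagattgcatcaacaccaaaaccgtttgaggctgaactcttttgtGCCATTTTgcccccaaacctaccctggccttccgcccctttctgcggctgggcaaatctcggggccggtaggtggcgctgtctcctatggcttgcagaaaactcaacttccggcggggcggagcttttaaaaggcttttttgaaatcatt
ITGB5 read 10.98 with siControl and 11.47 with siYY1, a difference of 0.49. A match describes the letters only and is not a measured binding site.

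**Figure D1:**
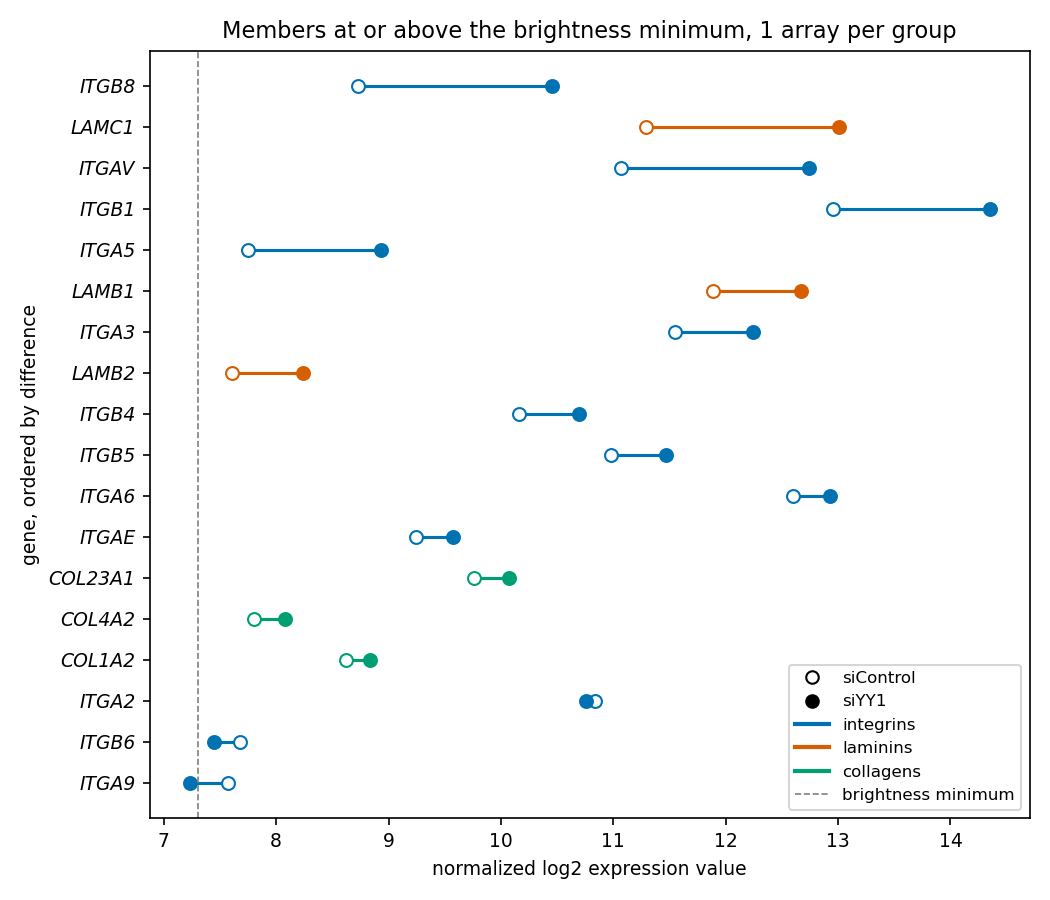
Normalized log2 values of the 18 bright integrin, laminin and collagen genes (x axis) with genes ordered by difference (y axis), open circles siControl and filled circles siYY1, 1 array each. The bars of ITGB8, LAMC1 and ITGAV are the longest and point to the siYY1 side, while ITGA2, ITGB6 and ITGA9 lie slightly to the other side.

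Of the 74 genes, 6 were at least 2-fold higher in siYY1, or 8.11%, against 4.62% of all named protein-coding genes, and 0 were at least 2-fold lower, against 5.67%. The median difference was 0.20 over the 74, beside -0.0047 over all protein-coding genes. Among the 18 bright genes 5 were at least 2-fold higher, or 27.8%, against 7.71% of the 8623 bright protein-coding genes, and 0 were lower, against 8.63%. The scaling sets the balance over all genes: of all bright genes past 2-fold, 47.2% were higher here 33.6% in the values as deposited and 26.1% with median centring, and in both of these the counts over the 18 were again 5 and 0. The median of the 18 was 0.51, and 15 of them lay above 0. The 5 ranked from 117th to 418th from the top among bright protein-coding genes, so many other genes differed by as much or more.

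**Figure D2:**
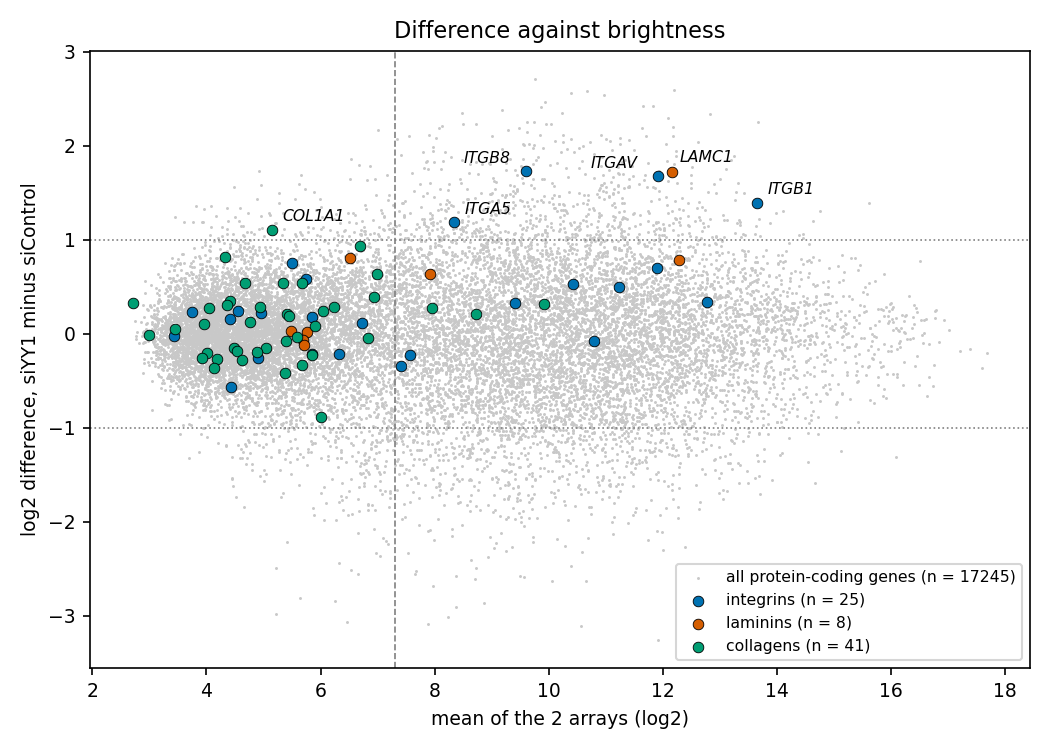
Log2 difference (y axis) against the mean of both arrays (x axis) for 17245 protein-coding genes in grey, with integrins in blue, laminins in orange and collagens in green; dotted lines mark 2-fold and the dashed line the brightness minimum of 7.31. The 5 bright genes past 2-fold lie above the upper dotted line, and most collagens lie left of the dashed line.

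Integrin beta chains differed from one another in size. ITGB8, which pairs with the alpha V chain to bind and activate latent TGF-beta, read 8.73 with siControl and 10.46 with siYY1, a difference of 1.73 or 3.31-fold. ITGB1, the common partner of most alpha chains and so the hub of laminin, collagen and fibronectin receptors, read 12.96 and 14.35, a difference of 1.39 or 2.63-fold. The remaining bright beta chains stayed under 2-fold. ITGB4, whose pair with alpha 6 anchors hemidesmosomes to laminin, read 10.16 and 10.69, a difference of 0.53. ITGB6, an epithelial chain that also pairs with alpha V, read 7.68 and 7.45, a difference of -0.23. So of the 3 bright beta chains that pair with alpha V besides ITGB1, ITGB8 stood past 2-fold, ITGB5 was at 0.49 and ITGB6 was below 0. The other beta chains, ITGB2 and ITGB7 of leukocytes and ITGB3 of platelets, had all values in the background range.

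Among alpha chains, those that recognise the RGD motif of fibronectin and vitronectin had the largest differences. ITGAV, the alpha V chain, read 11.06 with siControl and 12.74 with siYY1, a difference of 1.68 or 3.20-fold. ITGA5, which pairs with beta 1 as the main fibronectin receptor, read 7.75 and 8.93, a difference of 1.19 or 2.27-fold. The other RGD-binding chains, ITGA8 and the platelet chain ITGA2B, were in the background range on both arrays, with differences of -0.26 and -0.21. Fibronectin itself, FN1, was also in that range, at 5.03 and 5.17.

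No alpha chain for laminin passed 2-fold. ITGA3, the chain of the epithelial laminin receptor alpha 3 beta 1, read 11.55 and 12.25, a difference of 0.70. ITGA6, which pairs with beta 1 or beta 4, read 12.60 and 12.93, a difference of 0.34. The muscle chain ITGA7 was in the background range on both arrays, with a difference of -0.21. In the collagen-binding group ITGA2, the epithelial collagen receptor chain, read 10.83 and 10.76, a difference of -0.07, while ITGA10 and ITGA11 were in the background range. So among the bright alpha chains known to pair with beta 1, which include ITGA9 described next, differences ran from 1.68 for ITGAV to -0.34 for ITGA9.

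The remaining alpha chains are mostly those of leukocytes. ITGAE, which pairs with beta 7 and binds E-cadherin on epithelium, read 9.25 and 9.57, a difference of 0.33. ITGA9, which binds tenascin and VCAM1, read 7.57 and 7.23, a difference of -0.34, with its siYY1 value under the brightness minimum. ITGAL, ITGAM, ITGAX, ITGAD and ITGA4 were in the background range on both arrays, with differences between -0.56 for ITGAD and 0.75 for ITGAM.

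All 3 bright laminin genes were higher on the siYY1 array. LAMC1, the gamma 1 chain found in most laminins, read 11.29 with siControl and 13.01 with siYY1, a difference of 1.72 or 3.28-fold. LAMB1, the beta 1 chain that assembles with gamma 1, read 11.88 and 12.67, a difference of 0.78 or 1.72-fold. LAMB2, the beta 2 chain, read 7.61 and 8.24, a difference of 0.63. The 3 alpha chains measured, LAMA1, LAMA2 and LAMA4, were in the background range on both arrays, so no laminin alpha chain measured here was bright; the other alpha chains were not analysed here. LAMA4 was at 6.12 and 6.92, a difference of 0.81, and the other 2 were within 0.07 of 0. LAMB4 and LAMC3 were in the background range too, at 0.02 and -0.12.

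Collagens were mostly dim: 38 of 41 were under the brightness minimum and 35 had both values in the background range. COL23A1, a transmembrane collagen, read 9.76 with siControl and 10.08 with siYY1, a difference of 0.31. COL4A2, the alpha 2 chain of basement membrane collagen, read 7.81 and 8.08, a difference of 0.27. COL1A2, the alpha 2 chain of type I collagen, read 8.62 and 8.84, a difference of 0.21. None of these 3 neared 2-fold.

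Below the brightness minimum the only gene past 2-fold was COL1A1, the alpha 1 chain of type I collagen, at 4.60 with siControl and 5.70 with siYY1, a difference of 1.10. Both values were in the background range, and the difference lay inside the -1.35 to 1.13 of the genes restricted to other tissues. The lowest of all was COL9A3, a cartilage collagen chain, at 6.44 and 5.56, a difference of -0.88, also in the background range. COL28A1, at 6.22 and 7.16, differed by 0.94 and passed 2-fold in the values as deposited, at 1.03. Of the 56 dim genes 44 were within 0.5 of 0, 10 were at least 0.5 above and 2 at least 0.5 below. Across dim protein-coding genes the SD of the difference was 0.47. Their share past 0.5 each way was not counted, so nothing is read from this split. In the chains of type VI collagen and their relatives 5 of 6 were below 0, against 50.3% of all protein-coding genes. The 5 ran from -0.42 for COL6A1 to -0.07 for COL6A2, and COL28A1 was the exception. All 5 were in the background range on both arrays, so their direction says little. As deposited, COL6A2 was at 0.08.

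**Figure D3:**
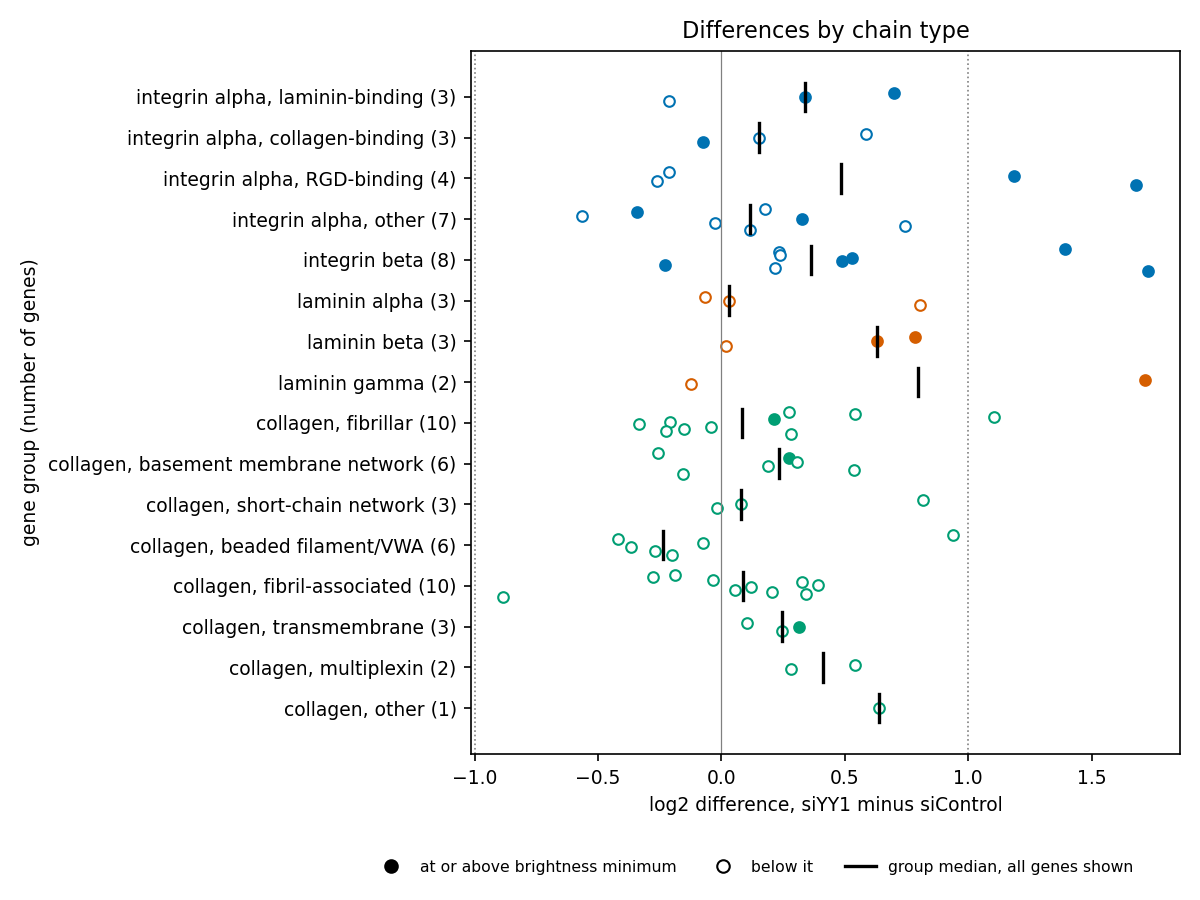
Log2 difference (x axis) of all 74 genes by chain type (y axis, number of genes in brackets), with integrins in blue, laminins in orange and collagens in green; filled circles are bright genes, open circles dim ones and black bars the group medians. The filled circles past 2-fold are RGD-binding alpha chains, beta chains and a laminin gamma chain, and the collagen groups are mostly open circles around 0.

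The 6 chains of type IV collagen lie as 3 pairs of neighbours read in opposite directions from a common stretch of DNA. The starts of COL4A1 and COL4A2 are separated by 126 bases, and the stretch between them is shown on the plus strand with its GC box in capitals.
COL4A1 to COL4A2, chr13:110307158-110307283, plus strand: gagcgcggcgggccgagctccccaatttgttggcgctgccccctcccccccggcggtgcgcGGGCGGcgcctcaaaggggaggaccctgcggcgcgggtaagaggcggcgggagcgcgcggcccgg
COL4A1 was in the background range at 4.06 and 3.80, a difference of -0.26, and COL4A2 differed by 0.27. With COL4A1 in that range, whether these 2 genes moved together cannot be read here. The starts of COL4A4 and COL4A3 are separated by 418 bases, and these genes differed by 0.19 and 0.31. COL4A6 and COL4A5, with 379 bases between their starts, differed by -0.16 and 0.54, and COL4A6 was at 0.01 as deposited. These 4 chains were all in the background range on both arrays, so their differences say little.

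Proteins that link integrins to the actin cytoskeleton held genes on both sides. Of 39 genes in the list of integrin adaptors and focal adhesion proteins 27 were bright, with 5 past 2-fold on the higher side and 1 on the lower, where 7.71% and 8.63% of all bright protein-coding genes were. The median was 0.10, beside -0.0033 over all bright genes, and turned to -0.046 in the values as deposited. ZYX, the zyxin of mature adhesions, was at 9.42 with siControl and 10.76 with siYY1, a difference of 1.34. ENAH, an actin regulator, differed by 1.32 and TNS4, a tensin that binds beta tails, by 1.24. KANK1, a talin-binding protein at the adhesion rim, read 6.95 and 8.05. Its siControl value was in the background range and it counted as bright only through siYY1. Its difference of 1.10 and its place in the count are therefore uncertain. DOCK1, the remaining gene past 2-fold upward, was under 2-fold as deposited, at 0.90, and was named after its value was seen. As deposited the counts were 4 higher and 1 lower, against 5.87% and 11.6% of bright genes in those values. LIMS1, the PINCH adaptor that binds integrin-linked kinase, read 12.33 and 11.25, a difference of -1.08. Integrin-linked kinase itself, ILK, was at 0.08, the beta tail activator FERMT1 at 0.06, vinculin (VCL) at -0.41 and focal adhesion kinase (PTK2) at -0.46, the last 4 named after their values were seen.

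Hemidesmosomes fix keratin filaments to alpha 6 beta 4. The list of hemidesmosome proteins and non-integrin laminin receptors had 7 genes, all bright, with a median of 0.09 that turned to -0.041 as deposited. Its plakins, which tie keratin to beta 4, were both past 2-fold: DST read 10.86 and 12.14, a difference of 1.28, and PLEC read 11.01 and 12.18, a difference of 1.17. The syndecan SDC4, a heparan sulphate co-receptor at focal adhesions, read 12.36 and 11.02, a difference of -1.34. So in this list 2 genes passed 2-fold upward and 1 downward, against 7.71% and 8.63% of bright protein-coding genes.

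Of 19 other basement membrane genes 5 were bright, and 2 of the bright ones were past 2-fold on the higher side and 0 on the lower side, against 7.71% and 8.63% of all bright genes. AGRN, agrin, a proteoglycan that binds the laminin coiled coil, read 9.31 and 10.87, a difference of 1.57 or 2.97-fold. HSPG2, perlecan, read 6.84 and 8.10, a difference of 1.26. Its siControl value was in the background range and it counted as bright only through siYY1, so this size and its place in the count are uncertain. The other 3 bright genes were under 2-fold. The laminin linker NID1 was dim at 3.42 and 3.76.

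In the list of integrin ligands other than laminins and collagens 11 of 34 genes were bright, with 3 at least 2-fold higher and 0 lower, against 7.71% and 8.63% of bright genes. The median was 0.35, and 0.19 as deposited. The counts as deposited were 2 higher and 0 lower, against 5.87% and 11.6% of bright genes in those values. Of the 11 bright genes 7 were above 0 and 4 below, against 49.8% and 50.1% of bright protein-coding genes. The lowest were ICAM1 at -0.75 and THBS1 at -0.46, named after their values were seen. LTBP1, which holds latent TGF-beta in the matrix, read 8.84 and 11.07, a difference of 2.23 or 4.69-fold. CCN1, a matricellular protein bound by alpha V and alpha 6 integrins, read 8.13 and 10.02, a difference of 1.88. MADCAM1, a ligand of leukocyte integrins, differed by 1.04 and was under 2-fold as deposited, at 0.95. TGFB1, whose latent form is a ligand of alpha V beta 8, read 9.11 and 9.82, a difference of 0.71, and was named after its value was seen. ENG, a TGF-beta co-receptor in the endothelial list, read 7.45 and 8.77, a difference of 1.33, while the endothelial genes PECAM1 and CDH5 stayed in the background range at 4.54 and 4.70, and at 3.72 and 3.86. Of the 8 genes in that list 4 were above 0 and 3 below, against 49.6% and 50.3% of all protein-coding genes. The lowest was CLDN5 at 6.85 and 6.20, a difference of -0.65 within the background range. The 8 genes of that list had a lowest, median and highest value of 3.62, 4.83 and 7.45 with siControl and of 3.59, 4.92 and 8.77 in siYY1, and their part in the differences above was not tested.

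Among enzymes and chaperones that modify and fold collagen, the genes past 2-fold were lower on the siYY1 array. Of 31 genes in this list 19 were bright, with 0 past 2-fold upward and 5 downward, against 7.71% and 8.63% of bright genes. In the values as deposited they were 0 and 6, against 5.87% and 11.6%. With median centring the shares of bright genes were 4.79% and 13.5%, and this list was not recounted there. The median was -0.46, with 13 of the 19 below 0 and 6 above. PLOD2, a lysyl hydroxylase that prepares collagen for crosslinking, read 13.87 with siControl and 12.49 with siYY1, a difference of -1.38. The prolyl hydroxylase chains P4HA1 and P4HA2 differed by -1.18 and -1.12, the disulphide isomerase TXNDC5 by -1.11 and the lysyl hydroxylase PLOD1 by -1.06. P4HB, the beta subunit of prolyl hydroxylase, read 15.05 and 14.13, a difference of -0.92, and was past 2-fold as deposited, at -1.08. Above 0 were PCOLCE, a procollagen protease enhancer, at 0.89, P3H1 at 0.34 and PLOD3 at 0.26.

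**Figure D4:**
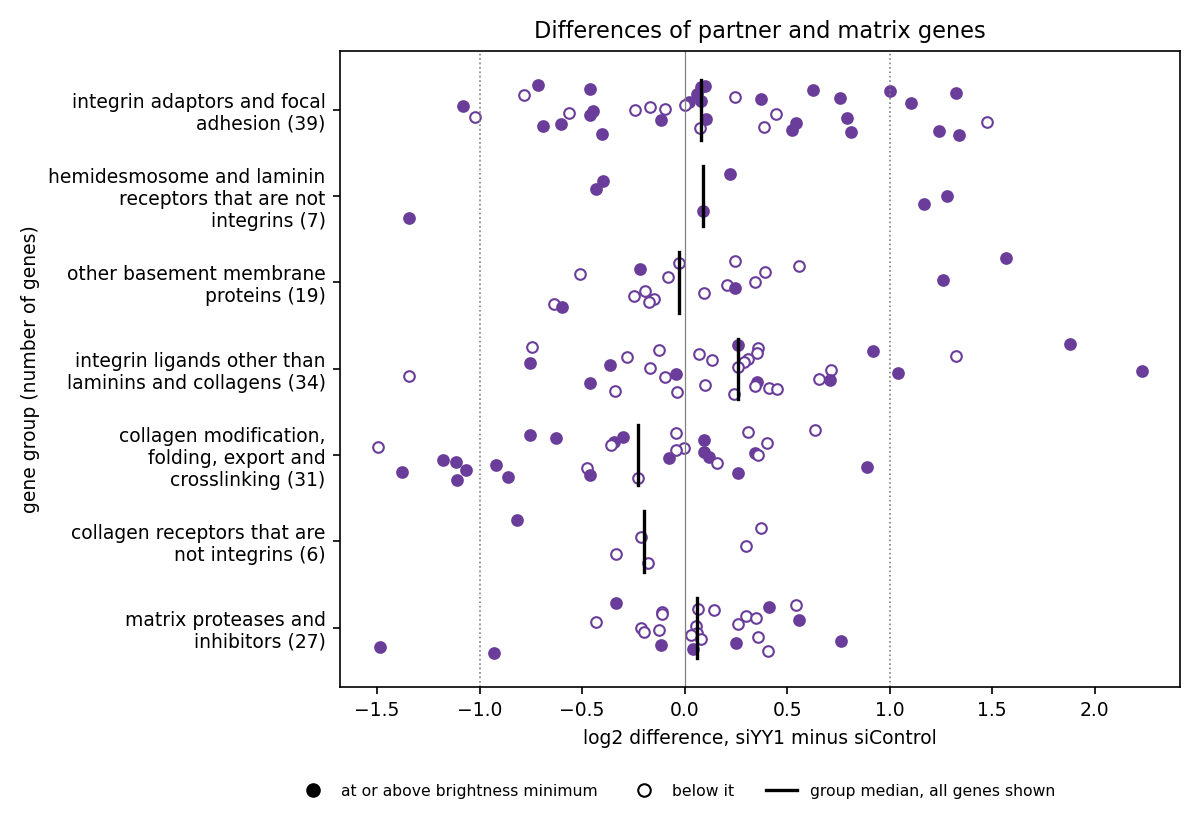
Log2 difference (x axis) of genes in 7 lists of integrin partners and matrix genes (y axis, number of genes in brackets); filled circles are bright genes, open circles dim ones and black bars the medians over all genes shown. The collagen modification list has its filled circles past 2-fold on the lower side, and the ligand and basement membrane lists have theirs on the higher side.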

How the data were processed

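The authors deposited 1 value per probe set and array, made from biotin-labelled sense-strand cDNA on a whole-transcript GeneChip, per the labels. The scale of the deposited values is inferred to be log2, since they ran from 2.51 to 17.9. For the software, background correction and normalization: not given in the sources used here. Probe sets were named from a platform annotation table (17709 with 1 symbol, 3739 with none, 0 with several), and all 17709 matched the RefSeq table of GRCh38.p14 by gene ID. The deposited quartiles differed by 0.18, 0.07 and -0.13 (siYY1 minus siControl), so the arrays were quantile normalized, as the rule asked above 0.05. Probe sets of 1 gene were averaged.

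Groups came from the sample titles, 1 array each. No test was possible, and genes were counted at 2-fold. The genes, lists and rules were chosen with earlier results of these data known. By rule every bright gene of the families was named, with dim ones past 2-fold, and up to 4 bright genes past 2-fold each way per list. Others named were chosen after their values were seen. The background range ends at the 90th percentile of 24 tissue-restricted genes. Promoter windows are RefSeq's, and protein lengths were not analysed here. The computation was tested on simulated data. Alternatives tried were the values as deposited, median centring, loess with a span of 0.3, the brightest probe set, other brightness minimums, 1.5-fold and 3-fold. The scripts ran in Python 3.11.15 with pandas 2.3.3 and numpy 2.4.6, loess came from statsmodels 0.14.6, and figures were drawn with matplotlib 3.10.9.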

Additional observations from a re-analysis of the deposited data

How the results depend on the processing

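No paired analysis was possible because each group had 1 array, and leaving out a replicate was not possible for the same reason. ITGB8, LAMC1, ITGAV, ITGB1, ITGA5 and COL1A1 stayed past 2-fold in the values as deposited, with median centring and with loess. The brightest probe set could change none of the 74, which have 1 probe set each. Over these scalings the lowest values were 1.54, 1.499, 1.46, 1.19, 1.03 and 1.10. Of the 74 genes 65 kept their sign in all of these, and the 9 that did not were at most 0.17 from 0 in any of them. Median centring left the median of all bright genes at -0.19, with 4.79% of them at least 2-fold higher and 13.5% lower. The median of the bright integrin, laminin and collagen genes, 0.51, was 0.38 as deposited, 0.30 with median centring, 0.20 with no brightness minimum and 0.70 with the minimum at the 75th percentile. That minimum left 9 of them, 3 at least 2-fold higher and 0 lower, against 6.93% and 7.37% of the protein-coding genes above it. At 1.5-fold 8 of the 18 bright genes were higher and 0 lower, against 19.1% and 21% of all bright genes. At 3-fold 3 of the 18 were higher and 0 lower, against 1.84% and 2.12%. Of all 74 genes 15 were higher and 1 lower at 1.5-fold, and 3 were higher at 3-fold. The shares over all genes, dim ones included, were not counted at these cuts. As deposited, the list medians were -0.046 for adaptors, -0.041 for hemidesmosomes, 0.11 for other basement membrane genes and 0.19 for other ligands. They were -0.11 for proteases and -0.95 for collagen receptors, the last being the value of DDR1, the only bright gene there. With no brightness minimum they were -0.026 for other basement membrane genes, -0.23 for collagen modification and -0.20 for collagen receptors. In that setting 2 of 39 adaptors (5.13%) and 1 of 34 ligands (2.94%) were at least 2-fold lower, against 5.67% of all protein-coding genes. On the higher side there were 6 adaptors and 4 ligands, against 4.62%. Of 77 such values recomputed, the brightest probe set left out, 56 stayed within 1.5 times for counts or 0.1 for medians. Where values moved, the cause was not tested.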

Other observations

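Matrix proteases and their inhibitors, a list with 9 bright genes of 27, had a median of 0.04 among the bright ones. SERPINB5, maspin, an epithelial member of the serpin protease inhibitor family, read 8.93 with siControl and 7.44 with siYY1, a difference of -1.48 or 2.80-fold lower. It was the only bright gene of the list past 2-fold. Thus 1 of 9 was lower and 0 higher, against 8.63% and 7.71% of bright protein-coding genes. Next in size were the inhibitor TIMP4, at 8.21 and 7.28, a difference of -0.93, and the protease PLAT, at 0.77. The cathepsin CTSB, the membrane protease MMP15 and the inhibitor TIMP1 differed by -0.34, 0.56 and 0.04. DDR1, a collagen receptor tyrosine kinase of epithelia, was the only bright gene among 6 collagen receptors that are not integrins, at 11.93 and 11.12, a difference of -0.82.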
